A study of Homo sapiens with 6 samples.

Results

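The 10 genes described here are SQLE, which the hairpin targets, MYC, and 8 genes between or near them on the long arm of chromosome 8 (band 8q24), namely FAM91A1, RNF139, NDUFB9, TATDN1, MTSS1, WASHC5, NSMCE2 and TRIB1. They were taken from the count table by matching Ensembl identifiers to these symbols. All 10 were found among its 19937 genes, and all 10 passed the filter on low counts that left 12450 genes for testing. The RNA came from U2OS, an established human osteosarcoma cell line. In 3 libraries, labelled U2-NC and called shControl here, the cells carried a scrambled hairpin. In the other 3, labelled U2-sh and called shSQLE, they carried a hairpin against SQLE. Both hairpins were delivered by the lentiviral vector pGIPZ, and stable lines were selected with puromycin, so the controls share the vector, the infection and the selection. Whether the drug was kept on afterwards is not given in the sources used here. Each group holds a single hairpin, and the sources used here do not say whether its libraries came from separate cultures, so p-values measure the spread between these libraries, which may be technical.

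Squalene epoxidase, the product of SQLE, adds oxygen to squalene on the way to cholesterol and is one of the control points of sterol synthesis. MYC encodes a transcription factor that pairs with MAX and drives genes of ribosome biogenesis, nucleotide synthesis and growth. The region that holds both is often gained as a block in human tumours, osteosarcoma among them, so that the genes between them are frequently carried along. A hairpin of this kind is processed into a small RNA that acts on a messenger RNA by sequence and leaves the gene's DNA copies as they are. The question the comparison addresses is how far the hairpin's target stands apart from the genes around it.

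The counts on genes ranged from 12212378 to 14393292 per library. A value below is a normalized count, that is, the count scaled to the mean effective library size, unless another scale is named. One library stood apart. A chi-square over its degrees of freedom, which is near 1 for sampling noise alone, was 53.9 and 63.8 between shControl replicate 1 and the other controls, against 2.83 for shControl replicates 2 and 3 and 3.40 to 15.9 within shSQLE. The difference followed transcript length. The median log2 ratio of shControl replicate 1 to the mean of the other controls was 0.52 in the fifth of tested genes with the shortest canonical transcripts and -0.46 in the fifth with the longest. Among the 10 genes it was highest for NDUFB9 (0.85, canonical transcript of 691 nt) and lowest for FAM91A1 (-0.99, 5529 nt). Its part in the results was not tested. Values without this library are given beside some of the results below, but not beside all of them. Of the osteoblast lineage markers, SPARC, RUNX2, COL1A1 and SPP1 were expressed, while SP7 and IBSP were at 0 in every library and ALPL, BGLAP and COL1A2 stayed at or below 6 counts. The summed level of these 9 markers was 478 to 533 CPM (counts scaled to a common library total) in shControl. In shSQLE it was 402 to 418 CPM. SPARC made up most of it, at 6343 ± 17.15 normalized counts in shControl and 5231 ± 137 in shSQLE (SD, n = 3 each). Its log2 fold change was -0.28 (adjusted p = 0.19 by edgeR). COL1A1 fell from 164 to 104 (log2 fold change -0.65, adjusted p = 0.045 by edgeR). Its adjusted p was 0.0053 without shControl replicate 1, and between 0.131 and 0.253 without any other library. The leukocyte markers PTPRC and CD3E were at 0 throughout, and the 4 leukocyte markers together stayed between 0.31 and 0.924 CPM. The 3 endothelial markers summed to between 0.901 and 1.22 CPM in shControl and between 0.155 and 0.493 in shSQLE. Of these, PECAM1 had 9, 15 and 15 counts in shControl and 4, 6 and 2 in shSQLE (adjusted p = 0.093 by edgeR). CDH5 and VWF stayed at or below 2 counts. The 3 epithelial markers summed to between 3.93 and 4.2 CPM in shControl and between 4.41 and 5.4 CPM in shSQLE. EPCAM made up most of this sum (log2 fold change 0.40, adjusted p = 0.36 by edgeR), while CDH1 and KRT5 stayed at or below 2 counts. The part of these markers in the results below was not tested. In such bulk libraries, fewer cells expressing a gene and less RNA per cell cannot be told apart.

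SQLE fell to 12.7% of its control level, MTSS1 fell to 45.8%, and MYC rose to 159%. The other 7 genes did not pass the test, and their fitted changes lay between -0.22 and 0.31 on the log2 scale. Counted over the 9 genes other than SQLE, 2 passed an adjusted p of 0.05, 1 lower and 1 higher, where 3.21% of all genes tested passed (2.84% lower and 0.369% higher). Fitted levels in shSQLE were lower for 4 and higher for 5 of the 9, and the median of their log2 fold changes was 0.06 against -0.01 over all genes tested. The groups did not overlap for MYC, MTSS1, TRIB1 and TATDN1, which is 4 of the 9 (44.4%), against 22.1% of all genes. Adjusted p-values come from the quasi-likelihood test of edgeR, corrected over all 12450 genes by the method of Benjamini and Hochberg.

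**Figure D1:**
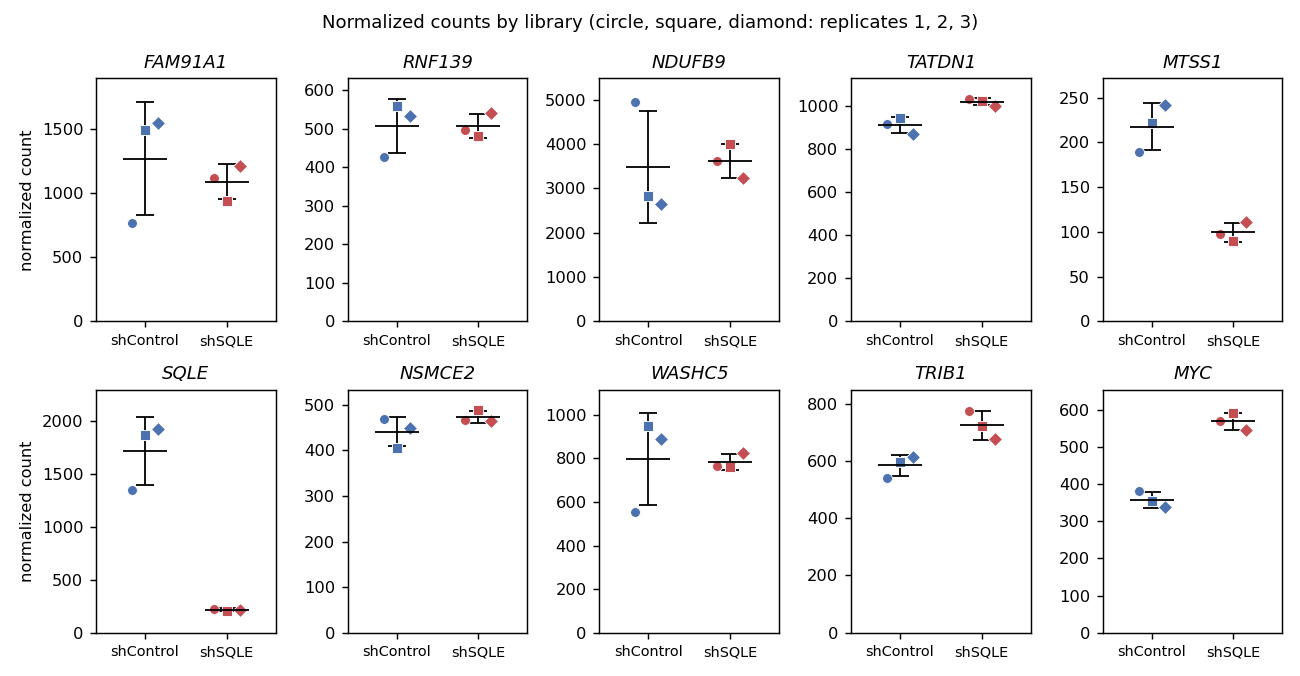
Normalized counts (y axis, from 0, a scale for each panel) of the 10 genes in shControl and shSQLE (x axis), in order of start site. Each marker is a library (circle, square and diamond for replicates 1, 2 and 3), and the bars are the mean and SD of 3 libraries. SQLE dropped from a mean of 1713 to 217, the 3 shSQLE libraries of MYC sit above all controls and those of MTSS1 below them, and shControl replicate 1 lies far from the other controls for NDUFB9, WASHC5 and FAM91A1.

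SQLE (ENSG00000104549) spans positions 124998497 to 125022283 on the + strand, with 11 exons and 2962 nt in the canonical transcript. All positions here are those of GENCODE v44 on chromosome 8 of hg38. In the order of the replicate numbers, its normalized count was 1349, 1867 and 1924 in shControl, and 229, 204 and 219 in shSQLE, and the same order is kept for the genes below. Every shSQLE library was below every control by a wide margin, and the shSQLE libraries lay close together, with a coefficient of variation of 5.81% against 18.5% in the controls. The mean was 1713 ± 317 (SD, n = 3) in shControl and 217 ± 12.6 (SD, n = 3) in shSQLE. The log2 fold change was -2.98 (SE 0.17, 95% interval -3.37 to -2.59), which is 7.88-fold lower, with an adjusted p of 0.000299 by edgeR. This was the 28th lowest log2 fold change of the 12450 genes tested. It kept its call in each of the 6 fits that left out a library, between -3.12 and -2.88. The transcript was not lost: the shSQLE libraries still held 207 to 234 SQLE counts each, far above a floor of 3 counts.

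MYC (ENSG00000136997) lies 2.74 Mb from the start site of SQLE, on the same strand, from 127735434 to 127742951. Its normalized count was 381, 354 and 337 in shControl, and 571, 591 and 545 in shSQLE. The lowest shSQLE library stood above the highest control. The mean rose from 357 ± 22.1 to 569 ± 23.4 (SD, n = 3 each). This was a log2 fold change of 0.67 (SE 0.12, 95% interval 0.40 to 0.94), or 1.59-fold, with an adjusted p of 0.023 by edgeR. The direction was opposite to that of SQLE, and MYC was one of 46 genes of the 12450 that rose past the test. The size of the change held while the call did not: over the 6 fits that left out a library the log2 fold change stayed between 0.64 and 0.72, but the adjusted p passed only without shControl replicate 1 (0.00026) and was 0.122 and 0.0924 without shControl replicates 2 and 3, and 0.141, 0.148 and 0.102 without shSQLE replicates 1, 2 and 3. The antisense lncRNA CASC11, which is not analysed here, shares 194 nt of exon with MYC (3.18% of its annotated exon bases). Whether the counting used the strand is not given in the sources used here.

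MTSS1 (ENSG00000170873), which encodes an I-BAR protein that bends membranes and binds actin, lies on the - strand from 124550784 to 124728473, and it starts 270.02 kb before SQLE. It was counted at 189, 222 and 241 in shControl and at 97.9, 89.7 and 111 in shSQLE. Every shSQLE library was below every control. MTSS1 fell from 217 ± 26.2 to 99.5 ± 10.75 (SD, n = 3 each). Its log2 fold change was -1.13 (SE 0.16, 95% interval -1.50 to -0.76), with an adjusted p of 0.010 by edgeR. Fits that left out a library gave log2 fold changes between -1.22 and -1.04. Its adjusted p by edgeR passed without shControl replicate 1 (6.03e-05) or 3 (0.043), and came to 0.0518 without shControl replicate 2 and to 0.0806, 0.0761 and 0.0527 without shSQLE replicates 1, 2 and 3. Longer forms of NDUFB9 on the + strand run into MTSS1 and share 2001 nt of exon with it, 25.7% of the annotated exon bases of MTSS1. The canonical transcripts of the 2 genes share no exon bases. How much of the canonical transcript of MTSS1 the longer forms cover was not measured. Reads from such stretches cannot be told apart without the strand.

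**Figure D2:**
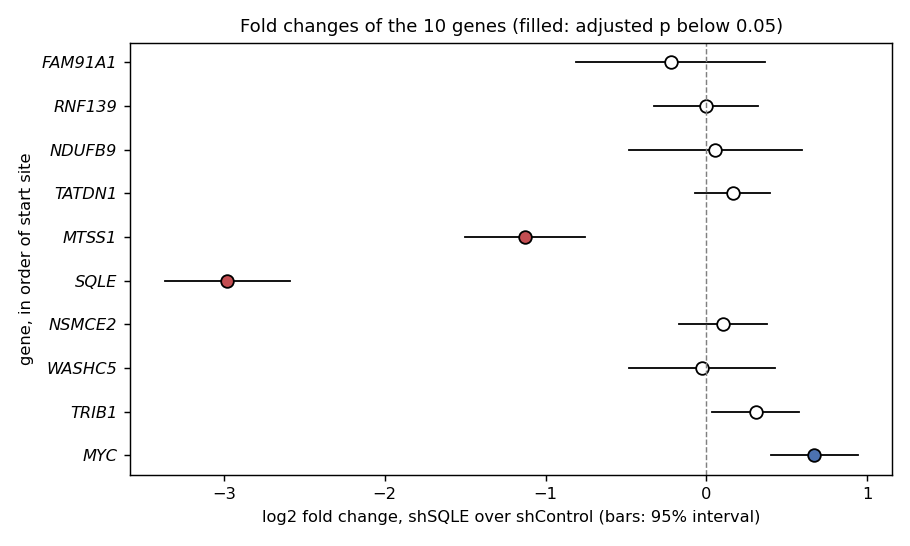
Log2 fold change of shSQLE over shControl (x axis) for the 10 genes in order of start site (y axis). Points are estimates of the edgeR fit and bars their 95% intervals, and filled points have an adjusted p below 0.05. SQLE at -2.98 and MTSS1 at -1.13 lie to the left of 0 and MYC at 0.67 to the right, while the other 7 points are open, and of these 7 intervals that of TRIB1 alone lies above 0.

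The 2 of the 10 genes that lie nearest to SQLE showed no change that passed the test. WASHC5 (ENSG00000164961, 125024260 to 125091819, - strand), a subunit of the WASH complex that drives actin branching on endosomes, runs towards SQLE and ends 1.98 kb from it. NSMCE2 (ENSG00000156831, 125091679 to 125367120, + strand), the SUMO ligase of the SMC5/6 complex in DNA repair, starts 140 nt from the start of WASHC5 in the opposite direction. WASHC5 was counted at 555, 949 and 889 in shControl and at 765, 761 and 823 in shSQLE. All 3 shSQLE libraries lay between the lowest control, which was replicate 1, and the others. Its log2 fold change was -0.03 (95% interval -0.48 to 0.43, adjusted p = 0.97 by edgeR), and -0.23 without shControl replicate 1 (adjusted p = 0.0587). NSMCE2 was counted at 468, 405 and 448 in shControl and at 466, 489 and 465 in shSQLE, with overlapping groups. Its log2 fold change was 0.10 (95% interval -0.17 to 0.38, adjusted p = 0.77). Neither interval reached the change of SQLE, and that of NSMCE2 left out a fall by more than 0.17 on the log2 scale. These head-to-head genes share 141 nt of exon on opposite strands, and the antisense lncRNA WASHC5-AS1, not analysed here, shares 200 nt with WASHC5.

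TRIB1 (ENSG00000173334, 125430358 to 125438403, + strand) is the next of the 10 genes towards MYC, a Tribbles pseudokinase that brings substrates to the ubiquitin ligase COP1. Its normalized count was 542, 597 and 614 in shControl and 774, 722 and 675 in shSQLE. The groups did not overlap, and the mean went from 584 ± 37.9 to 723 ± 49.2 (SD, n = 3 each). The log2 difference was 0.31 (SE 0.12, 95% interval 0.04 to 0.58), and its adjusted p of 0.26 by edgeR did not pass. In fits that left out a library it was between 0.26 and 0.37 with adjusted p-values of 0.0506 and above.

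RNF139, TATDN1 and NDUFB9 adjoin one another on the other side of SQLE, and none of them passed the test. RNF139 (ENSG00000170881, 124474880 to 124488618, + strand) encodes TRC8, a ubiquitin ligase of the endoplasmic reticulum with a sterol-sensing domain. TATDN1 (ENSG00000147687, 124488485 to 124539458, - strand) encodes a TatD-type deoxyribonuclease. NDUFB9 (ENSG00000147684, 124539101 to 124580648, + strand) encodes an accessory subunit of complex I of the respiratory chain. RNF139 was counted at 427, 559 and 533 in shControl and at 496, 482 and 541 in shSQLE. The groups overlapped and their means were nearly equal, at 506 ± 69.7 and 506 ± 30.7 (SD, n = 3 each). The log2 difference was within 0.01 of 0 (95% interval -0.32 to 0.32, adjusted p = 0.997 by edgeR).

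TATDN1 had 918, 945 and 873 in shControl and 1036, 1024 and 1003 in shSQLE. These groups did not overlap, but the difference was small, at 0.16 on the log2 scale (95% interval -0.07 to 0.40, adjusted p = 0.55 by edgeR). TATDN1 also had the smallest spread of the 10 genes, with coefficients of variation of 3.99% in shControl and 1.63% in shSQLE. NDUFB9 had 4934, 2838 and 2652 in shControl and 3617, 3997 and 3222 in shSQLE. All shSQLE libraries lay between shControl replicate 1 and the other controls, and the log2 difference was 0.06 (95% interval -0.48 to 0.60, adjusted p = 0.95). Without shControl replicate 1, NDUFB9 was higher in shSQLE by 0.40 on the log2 scale and passed (adjusted p = 0.0071). TATDN1 and RNF139 overlap tail to tail by 134 nt of exon, and the start sites of TATDN1 and NDUFB9 lie 357 nt apart.

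FAM91A1 (ENSG00000176853, 123768439 to 123815452, + strand), whose product binds TBC1D23 and helps to capture endosome-derived vesicles at the Golgi, starts 1.23 Mb before SQLE. It was counted at 764, 1490 and 1548 in shControl and at 1114, 939 and 1208 in shSQLE. Again the shSQLE libraries lay between shControl replicate 1 and the others. The log2 difference was -0.22 (95% interval -0.81 to 0.37, adjusted p = 0.78 by edgeR). Without shControl replicate 1 it was -0.48 and passed (adjusted p = 0.0039). In that fit 4 of the 9 genes other than SQLE passed (MYC, MTSS1, NDUFB9 and FAM91A1), where 33.9% of all genes did.

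Levels between genes were compared per kb of canonical transcript. In shControl the order from the highest was NDUFB9 (5029 ± 1834 normalized counts per kb, SD, n = 3), TATDN1 (886 ± 35.3), SQLE (578 ± 107), NSMCE2 (371 ± 26.95), FAM91A1 (229 ± 79.0), WASHC5 (193 ± 51.2), TRIB1 (162 ± 10.5), RNF139 (158 ± 21.8), MYC (96.0 ± 5.93) and MTSS1 (43.5 ± 5.25). The ranges of neighbours in this order did not overlap, except that FAM91A1 overlapped WASHC5, WASHC5 overlapped TRIB1 and TRIB1 overlapped RNF139. SQLE thus stood above NSMCE2 and MYC in every control, at the 86th percentile of the genes tested, while MYC was at the 45.8th. In shSQLE the level of SQLE was 73.4 ± 4.26 per kb, below that of MYC (153 ± 6.28), and only MTSS1 was lower (19.9 ± 2.15). RNF139 (158 ± 9.60) and MYC overlapped there. NDUFB9, TATDN1 and NSMCE2 were the highest in shSQLE, at 5227, 992 and 398 per kb, and the order of TRIB1, FAM91A1 and WASHC5 could not be told from the spread. The value of NDUFB9 depends on the length used, since its annotated exons cover 16591 nt and its canonical transcript 691 nt.

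Within each library, the count of SQLE was set against the geometric mean count of the other 9 genes, a ratio that needs no scaling between libraries. SQLE stood above this mean in every control and below it in every shSQLE library. The counts were not scaled by transcript length, so the sign of the ratio does not rank SQLE among the single genes. The log2 ratio was 1.11, 1.42 and 1.47 in shControl, and -1.57, -1.71 and -1.64 in shSQLE. The means differed by -2.97, or 7.85-fold, nearly the change of SQLE alone. A two-sided exact permutation test over the 6 libraries gave p = 0.1, the smallest that 3 against 3 allows. With the 25 tested genes of the 5 Mb window that are neither SQLE nor MYC as the reference, the difference was -2.69.

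MYC was set in the same way against the 8 genes other than SQLE and itself. Its log2 ratio was -0.81, -1.11 and -1.17 in shControl and -0.29, -0.20 and -0.37 in shSQLE, and every shSQLE library was above every control. The means differed by 0.74, or 1.68-fold (exact permutation test, two-sided p = 0.1, again the smallest possible). Against the summed count of the same 8 genes the ratio varied less, between -4.53 and -4.50 in shControl and between -3.89 and -3.85 in shSQLE, and the difference was 0.65. Against the 25 tested genes of the 5 Mb window, the ratio was 0.28, -0.10 and -0.22 in shControl and 0.94, 1.04 and 0.80 in shSQLE.

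**Figure D3:**
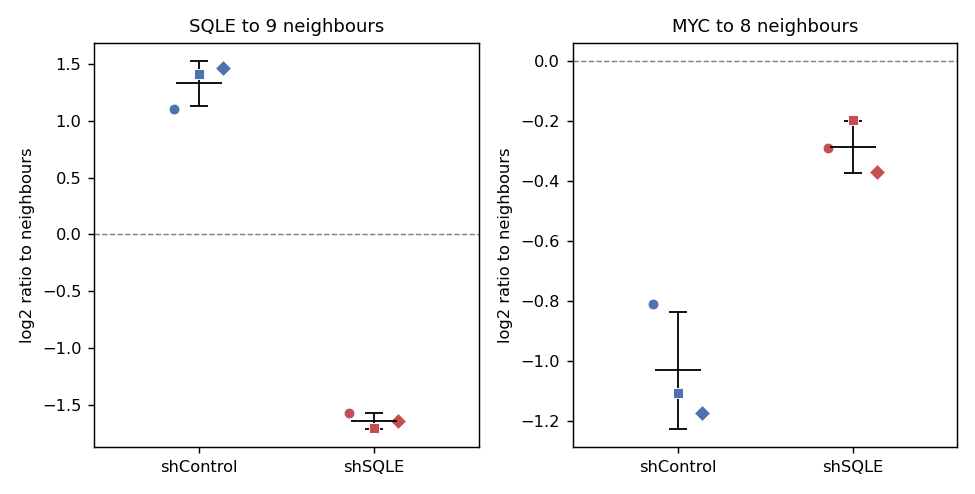
Log2 ratio within each library (y axis) of SQLE to the geometric mean count of the other 9 genes (left) and of MYC to that of 8 genes without SQLE (right), in shControl and shSQLE (x axis). Markers are libraries (circle, square and diamond for replicates 1, 2 and 3), and bars are the mean and SD of 3 libraries. The ratio of SQLE moved from a mean of 1.33 to -1.64 and that of MYC from -1.03 to -0.29.

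In the wider neighbourhood the share of genes past the test was above that of all genes in the fit on all 6 libraries. Beside SQLE, 33 genes of the table start within 5 Mb of it, of which 26 were tested and 4 passed (15.4%, against 3.21% of all genes tested), namely MYC, MTSS1, HAS2 and FAM83A. In the fit without shControl replicate 1, 11 of 27 passed (40.7%, against 33.9% of all genes). Within 2 Mb, 6 of 21 passed in that fit (28.6%, below the share of all genes). Without shControl replicate 2, 1 gene of the 5 Mb window passed, where 163 of 12539 genes did. Without shControl replicate 3, 3 genes of the window passed, where 211 of 12566 genes did. Without shSQLE replicate 1, 2 or 3, 0 genes of the window passed, where 109 of all genes did each time. The median log2 fold change of the 26 was -0.02, with 16 lower and 10 higher, and the groups did not overlap for 11 of them (42.3%, against 22.1% of all genes). HAS2, a hyaluronan synthase that starts at -3.36 Mb from SQLE, had 23.1, 45.2 and 58.9 normalized counts in shControl and 2.94, 4.93 and 4.11 in shSQLE. It fell by 3.38 on the log2 scale (adjusted p = 0.0095 by edgeR), with shSQLE counts close to the floor. FAM83A, a signalling adaptor at -1.82 Mb, had 55.4, 44.3 and 34.3 in shControl and 14.7, 11.8 and 18.5 in shSQLE, and fell by 1.56 (adjusted p = 0.029). HAS2 did not pass without shSQLE replicate 1, 2 or 3 (adjusted p = 0.071, 0.0543 and 0.0733), nor FAM83A without shControl replicate 2 (0.105) or shSQLE replicate 1, 2 or 3 (0.149, 0.148 and 0.104). The third lowest value was that of MTSS1, and the 3 highest were those of MYC, TRIB1 and NTAQ1, an amidase of N-terminal glutamine (0.28, adjusted p = 0.35). Of the tested genes that start between FAM83A and MYC, none other than SQLE and MTSS1 passed. Within 2 Mb of SQLE 2 of 20 genes passed (10%), and within 10 Mb 6 of 48 did (12.5%), against the same 3.21%, which adds TNFRSF11B (-3.19) and CCN3 (-2.57). Along the whole chromosome 8, 15 of 443 genes fell and 3 rose (4.06% in all), with a median of -0.07.

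**Figure D4:**
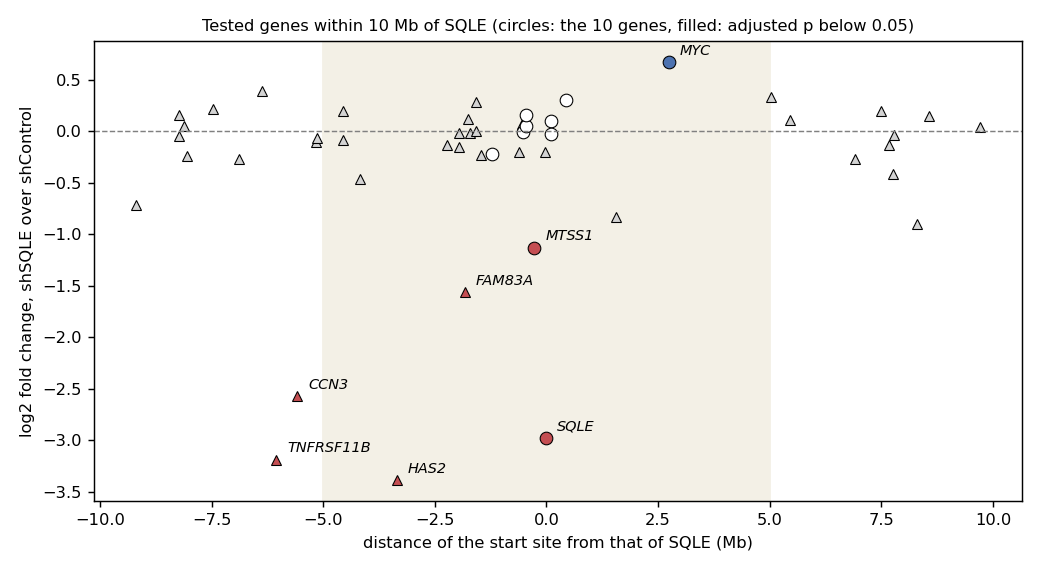
Log2 fold change of shSQLE over shControl (y axis) of the tested genes against the distance of their start sites from that of SQLE in Mb (x axis). Circles are the 10 genes, triangles others, filled symbols have an adjusted p below 0.05, and the shaded band marks 5 Mb on each side. SQLE lies at -2.98, the 7 open circles lie between -0.22 and 0.31, MTSS1, FAM83A and HAS2 lie below them, and MYC at 0.67 is the highest of the genes shown.

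The partners of these genes were described from lists of 166 related genes, all in the table, of which 162 were tested, 3 fell and none rose by edgeR (1.85%, against 3.21% of all genes). By DESeq2 7 of 165 passed (4.24%, against 5.15%), and without shControl replicate 1 80 of 162 did (49.4%, against 33.9%). Among the enzymes of sterol synthesis listed, SQLE alone passed the test. Of the 20 others, 0 passed by edgeR or DESeq2. An unadjusted p under 0.05 was found for 0 of them, against 1832 of all 12450 genes tested by edgeR. Of the 20, 11 were lower and 9 higher, with a median of -0.04 and values between -0.75 (CYP51A1, adjusted p = 0.53) and 0.23. The smallest p in this list was that of HSD17B7, a 3-ketosteroid reductase (-0.29, adjusted p = 0.35). Without shControl replicate 1, 4 of the 20 fell and 4 rose (40%, against 33.9% of all genes). FDFT1, which makes the squalene that SQLE uses, and LSS, which acts on its product, differed by 0.09 and 0.01. Among 7 genes that control the sterol-responsive SREBP factors, SREBF1 fell from 1565 ± 356 to 853 ± 53.5 (SD, n = 3 each), by 0.88 on the log2 scale (adjusted p = 0.033 by edgeR). INSIG1, whose product holds the SREBP complex in the endoplasmic reticulum, fell from 704 ± 64.8 to 433 ± 39.2, by 0.70 (adjusted p = 0.029 by edgeR). SREBF2 was at 0.02. Of 8 ubiquitin ligases and cofactors of the endoplasmic reticulum, among which RNF139 has its relatives, RNF145 fell from 2990 ± 224 to 1490 ± 123, by 1.00 (adjusted p = 0.0037 by edgeR). MARCHF6, the ligase known to act on the SQLE protein, was at 0.01 (adjusted p = 0.99). RNF145 passed in every fit that left out a library. Of these 6 fits, SREBF1 and INSIG1 passed only in that without shControl replicate 1 (0.000143 and 0.000144), with adjusted p-values from 0.0548 to 0.195 and from 0.111 to 0.168 without any other library.

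For MYC, neither its binding partners nor its targets held a gene past the edgeR test. Of 12 genes of the MAX network, 10 were tested, 7 were lower and 3 higher, and 0 passed by DESeq2. An unadjusted p under 0.05 by edgeR was found for 1 of the 10, against 1832 of all 12450 genes. The smallest p was that of MXD4, a repressor that competes for MAX (-0.63, adjusted p = 0.17). MAX itself was at 0.12. Of the 10, 3 passed without shControl replicate 1 (30%, against 33.9% of all genes). Of 9 genes of MYC protein turnover, 3 were lower and 6 higher, with 2 under an unadjusted p of 0.05 (against 1832 of 12450 genes). By DESeq2 2 of the 9 passed (22.2%, against 5.15% of all genes). The smallest p by edgeR was that of AURKA, a kinase that stabilises MYC family proteins (0.37, adjusted p = 0.0895). Of the 9, 4 passed without shControl replicate 1 (44.4%, against 33.9% of all genes). Of 40 MYC targets, 38 were higher and 2 lower, with a median of 0.21 against -0.01 over all genes. An unadjusted p under 0.05 was found for 4 of the 40 (against 1832 of 12450 genes), while DESeq2 called 1 (2.5%, against 5.15% of all genes). NPM1, a nucleolar chaperone, had the smallest p, with 29440 ± 926 in shControl and 39520 ± 68.4 in shSQLE (0.42, adjusted p = 0.052). The share of targets whose groups did not overlap was 22.5%, near the 22.1% of all genes. Without shControl replicate 1, 34 of the 40 were higher, the median was 0.38 and 23 passed, all higher (57.5%, against 33.9% of all genes in either direction). The median was between 0.16 and 0.25 without any other library. For the fifth of all tested genes with the shortest transcripts, the median was 0.07, and 0.25 without shControl replicate 1. The part of transcript length in the values of the MYC targets was not tested.

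Of the 36 nuclear genes of complex I listed as partners of NDUFB9, 33 were higher and 3 lower, with a median of 0.15. By edgeR and by DESeq2 0 passed, and 0 had an unadjusted p under 0.05, where 1832 of 12450 genes had one by edgeR. The smallest p was that of NDUFA10 (0.22, adjusted p = 0.39). The size of the split varied with the library left out, though more genes were higher than lower in every such fit. Without shControl replicate 1, 34 were higher, the median was 0.39 and 25 passed (69.4%, against 33.9% of all genes). Without shControl replicate 2, 24 were higher and 12 lower, with a median of 0.06. Without shControl replicate 3, 20 were higher and 16 lower, with a median of 0.05, and without shSQLE replicate 2, 25 were higher and 11 lower, with a median of 0.07. Without shSQLE replicates 1 and 3, 32 and 34 were higher, with medians of 0.12 and 0.25. In the fifth of all tested genes with the shortest transcripts, the median log2 fold change was 0.07, and 0.25 without shControl replicate 1.

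The remaining partners held no gene past the edgeR test. An unadjusted p under 0.05 was found for 1 of 8 genes of the WASH complex and 2 of 6 of the Tribbles list (against 1832 of 12450 genes). DESeq2 called 1 gene, of the 8 of the WASH complex (12.5%, against 5.15% of all genes). Leaving out shControl replicate 1, edgeR called 3 of 7 genes of the SMC5/6 complex, 4 of 8 of the WASH complex, 2 of 6 of the Tribbles list, 2 of 6 of the tethering list, 0 of 3 I-BAR and 0 of 2 TATD genes, against 33.9% of all genes. In the SMC5/6 complex of NSMCE2, 7 genes were tested, with a median of -0.13 and NSMCE4A leading (-0.17, adjusted p = 0.53). Of the WASH complex of WASHC5, 8 genes had a median of -0.03, led by CAPZA1, an actin capping subunit (0.53, adjusted p = 0.099). Of 6 Tribbles relatives and partners of TRIB1, TRIB3 had the smallest p (-0.83, adjusted p = 0.17). Of 6 genes of TBC1D23-WDR11 tethering, the partners of FAM91A1, it was GOLGA4, a golgin (-0.45, adjusted p = 0.46). The 3 tested I-BAR relatives of MTSS1 gave values between -0.24 and 0.15, with BAIAP2 the lowest and also the smallest p (-0.24, adjusted p = 0.66). Whether they differed from MTSS1 was not tested. TATDN3, at -0.17 (adjusted p = 0.67), led the 2 relatives of TATDN1.

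**Figure D5:**
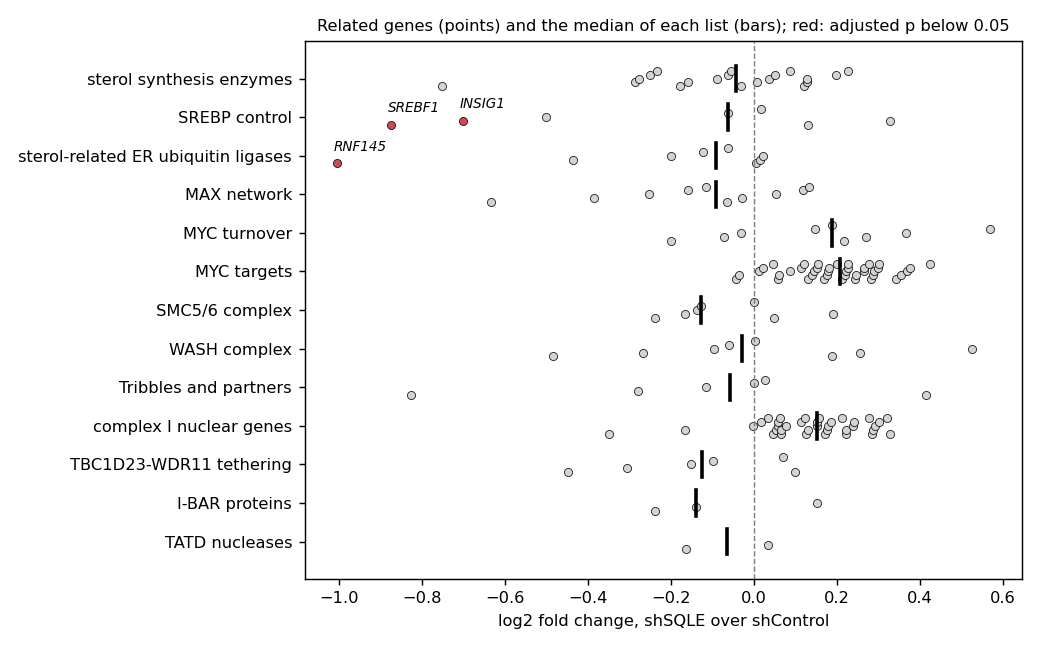
Log2 fold change of shSQLE over shControl (x axis) of each tested gene in 13 lists of related genes (y axis). Points are genes, black bars the median of a list, and red points have an adjusted p below 0.05. SREBF1, INSIG1 and RNF145 are the red points, and the bars of the MYC targets (0.21) and of the complex I genes (0.15) lie to the right of 0.

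The 3 genes nearest in pattern to SQLE and the 3 nearest to MYC over the 6 libraries start outside the 5 Mb window. That window held 26 of the 12450 genes tested beside SQLE, so few nearest genes could fall in it, and nothing about the locus is drawn from this. With 2 groups, likeness largely follows the size of the fold change. Likeness was the root mean square difference of mean-centred log2 CPM, where SQLE itself spread by 1.49 and MYC by 0.34. Nearest to SQLE were PTGS2, a prostaglandin synthase (0.0819), CSGALNACT1, an enzyme of chondroitin sulfate synthesis (0.121), and FN1, fibronectin (0.141). Their log2 fold changes were -2.99, -3.51 and -2.88. Nearest to MYC were CCN1, a matricellular protein (0.0443), WDR77, a subunit of the PRMT5 methylosome (0.0538), and TUBB2B, a beta-tubulin (0.0587), with log2 fold changes of 0.70, 0.67 and 0.62.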

How the data were processed

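Poly(A) RNA of 6 U2OS libraries was sequenced, 3 shControl and 3 shSQLE, grouped by their labels. According to the submitters' processing notes, reads were trimmed with fastp 0.20.0, aligned to hg38 with STAR 2.7.9a and counted per gene with featureCounts 2.0. The table the authors deposited holds these raw counts without normalization. The annotation release, strand setting and handling of multi-mapping reads are not given in the sources used here.

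Of 19937 genes, 19905 matched GENCODE v44, the source of positions and lengths, and 3942 had no count. Counts were analysed with R 4.3.3 and edgeR 4.0.16, with filterByExpr, TMM normalization and the quasi-likelihood test, a model of group alone and a threshold of 0.05 after Benjamini-Hochberg adjustment. The script was tested on simulated counts. At these depths the floor was set at 3 counts per library, which covers counting error only. Standard errors are the log2 fold change over the square root of F, and intervals cover 95%. Ratios within a library were compared by exact permutation over libraries. Figures were drawn with matplotlib 3.10.9.

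The 10 genes and the lists were chosen with earlier results of these data known. Some marker genes are not reported here and are in no summed level. Named beside the 10 were the genes past the test in the 5 Mb window and its 3 lowest and 3 highest values, the genes of each list past the test or else the one with the smallest p, and the 3 nearest patterns to SQLE and MYC. TNFRSF11B, CCN3, the extremes of lists, FDFT1, LSS, SREBF2, MARCHF6 and MAX were named after their values were seen. Alternatives were DESeq2 1.42.0, other size factors and filters, a replicate block, other windows and references, and leaving out each library. Those for the lists and the ratio to transcript length were added after seeing the data.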

Additional observations from a re-analysis of the deposited data

How the results depend on the processing

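SQLE kept its call and direction under every alternative run, which were DESeq2, other size factors, other filters, the replicate block and leaving out each library. MTSS1 and MYC kept their direction under all of these, and MTSS1 its call under all but 4 fits without a library. The ratio of SQLE to its neighbours differed by -2.69 with the genes of the 5 Mb window as reference and by -3.24 with the 3 members that share no exon with another member. The ratio of MYC differed by 0.95 with the window genes and by 0.60 with the 2 such members other than MYC itself. DESeq2 called 714 genes (400 by edgeR), 7 related genes (3 by edgeR) and the same number, 2, of the 9 genes. Within 2 Mb of SQLE, edgeR called 2 of 20 genes (10%, against 3.21% of all genes). DESeq2 called 3 of 22 there (13.6%) and 5 of 28 within 5 Mb (17.9%), against 5.15% of all genes. RNF139, near 0 throughout, changed sign under DESeq2 (0.014), RLE size factors (0.011) and no filter on low counts (0.0014).

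Whether the replicate numbers pair the libraries could not be told. Deviations of same-numbered libraries from their group means correlated at 0.138, -0.433 and 0.543, and shControl replicates 1 and 2 correlated best with other numbers. Deviations from a mean of 3 libraries sum to 0, and shControl replicate 1 stood far apart, so these correlations are not independent of one another. With the replicate block, 396 genes passed, 1 of the 9 genes passed, TRIB3 passed (-0.79, adjusted p = 0.0448 by edgeR), INSIG1 did not (-0.70, adjusted p = 0.0562 by edgeR), MYC had a log2 fold change of 0.67 with an adjusted p of 0.0508 by edgeR, and RNF139 (0.0058) and WASHC5 (0.0069) changed sign.

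Leaving out each library in turn, from 109 to 4264 genes passed, of the 9 genes from 0 to 4, of the 5 Mb window from 0 to 11 and of the related genes from 1 to 80, each highest without shControl replicate 1. The median log2 fold change ranged from 0.033 to 0.15 over the 9 genes, from -0.24 to 0.076 over the window, from 0.16 to 0.38 over the MYC targets and from 0.05 to 0.39 over the complex I genes. RNF139 ranged from -0.11 to 0.076, WASHC5 from -0.23 to 0.12 and NDUFB9 from -0.095 to 0.40, each changing sign. The cause was not tested. The low counts of HAS2 and FAM83A limit the precision of their folds.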
